A study of Mus musculus with 2 samples.

Results

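Csf2-expressing group 3 innate lymphoid cells (ILC3s) of the mouse small intestine were defined here as cells with no UMI of the T cell receptor partner genes Cd3e, Cd3d or Cd3g and at least 1 UMI of Csf2. A UMI is 1 counted RNA molecule. There were 498 such cells among 8583 CD3-negative cells of the IL-23 stimulated library and 736 among 10075 of the unstimulated library. Together they made 1234 of the 18658 CD3-negative cells and of the 20041 cells kept in all. Cells were kept at 500 or more detected genes and at most 10% mitochondrially encoded UMIs. Members were chosen by their measured Csf2 UMIs, so their Csf2 level is a description and not a result. The markers Nfkbid, Dusp4, Cxcl2 and Tiparp were proposed from the same data, so their values are also given as descriptions.

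The study profiled the IL-23 receptor-positive cells of the healthy small intestine by droplet single-cell RNA sequencing. Cells came from Il23r-eGFP mice, in which the green fluorescent protein reports expression of the IL-23 receptor gene, and Peyer's patches had been taken out. Live eGFP-positive cells were sorted from a Percoll-enriched leukocyte fraction after collagenase and dispase digestion, so every cell passed the reporter gate. One group was labelled as treated with IL-23, given as the recombinant mouse protein for 2 hours after the sort. The other group was labelled unstimulated. The protocol text attached to both libraries describes the IL-23 step, and whether the unstimulated cells were kept in culture for the same time is not stated. The labels give no sex, age or number of animals. With a single library on each side, differences below have no replicate check and no test, and intervals cover counting error only.

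Csf2 encodes GM-CSF, a growth factor that maintains macrophages and dendritic cells and activates granulocytes. In the intestine ILC3s are a known source of GM-CSF, and interleukin-1 from macrophages is a known inducer. In lymphocytes Csf2 transcription is known to be switched on by NF-kB, NFAT and AP-1 factors, and its mRNA is short-lived because an AU-rich element in it is recognised by decay proteins. The comparison therefore asked which other genes were higher or lower in cells caught with a Csf2 transcript than in CD3-negative cells without one, whether the NF-kB, NFAT, AP-1 and decay genes were among them, and whether the answer was alike in both libraries.

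Csf2 (ENSMUSG00000018916) lies on the minus strand at chr11:54247271-54249667 of GRCm38 (mm10), in the cluster that also holds Il3 at chr11:54265303-54267277, 15635 bases away. No Il3 UMI was counted in any member or matched cell of either library. The promoter windows of Csf2, Tnf and Cxcl2 are shown because these are the chosen cytokine, a cytokine that was higher together with it, and a marker whose window held an NF-kB motif. Each runs from 250 bases before to 50 bases after the RefSeq start of the gene on GRCm38.p6, written 5′ to 3′ on the strand of the gene, at chr11:54249850-54250149 (minus), chr17:35201958-35202257 (minus) and chr5:90903649-90903948 (plus). Capitals mark the NFAT core GGAAA on either strand and, in Cxcl2, an NF-kB motif matched as GGGAATTTCC, which overlaps 1 of the GGAAA matches. The C that follows it is in capitals because a match to a wider NF-kB consensus, found in 8.46% of windows, ends there.
Csf2: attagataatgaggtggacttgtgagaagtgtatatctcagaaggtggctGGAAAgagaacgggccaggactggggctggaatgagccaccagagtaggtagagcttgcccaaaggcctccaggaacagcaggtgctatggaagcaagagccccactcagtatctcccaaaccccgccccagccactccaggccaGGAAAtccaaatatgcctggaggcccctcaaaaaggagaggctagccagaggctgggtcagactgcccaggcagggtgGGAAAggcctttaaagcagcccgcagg
Tnf: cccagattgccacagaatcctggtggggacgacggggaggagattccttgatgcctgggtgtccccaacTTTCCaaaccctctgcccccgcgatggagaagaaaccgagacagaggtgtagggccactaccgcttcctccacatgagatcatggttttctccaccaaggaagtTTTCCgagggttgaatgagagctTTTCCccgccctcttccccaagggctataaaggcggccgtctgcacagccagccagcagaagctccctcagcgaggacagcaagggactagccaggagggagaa
Cxcl2: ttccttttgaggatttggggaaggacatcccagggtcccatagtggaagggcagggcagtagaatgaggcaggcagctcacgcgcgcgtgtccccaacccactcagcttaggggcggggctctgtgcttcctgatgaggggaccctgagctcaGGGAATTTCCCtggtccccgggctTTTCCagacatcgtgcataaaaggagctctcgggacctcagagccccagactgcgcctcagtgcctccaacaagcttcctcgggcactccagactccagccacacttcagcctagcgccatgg
The Csf2 window held 3 GGAAA matches, the Tnf window 3 and the Cxcl2 window 2. GGAAA occurs in 61.3% of the 32851 promoter windows of the table, so its presence is common. The NF-kB motif searched, in which the fifth of those bases may be any, occurs in 0.411% of windows, and of the 6 genes searched Cxcl2 alone held it. The AP-1 motif TGANTCA, found in 7.81% of windows, and the cyclic AMP response motif TGACGTCA, found in 1.79%, were in none of the 6 windows. The Csf2 window lies wholly upstream of the start in the GENCODE annotation, 183 bases from it. The bases between were not searched, so a motif missing from this window may still lie next to that start. Of the other markers, Nfkbid (chr7:30421732-30428746, plus strand) held 1 GGAAA and Tiparp (chr3:65528410-65555518, plus strand) none. Il2 (chr3:37120523-37125959, minus strand) held 2, and Dusp4 (chr8:34807297-34819894, plus strand) has no window in the table. These matches describe letters in a short window and show no binding.

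Members were sequenced to a median of 6870 UMIs in the IL-23 stimulated library and 5672 UMIs in the unstimulated library, against 5978 and 4802 UMIs in the CD3-negative cells without Csf2. Each member was therefore set beside the CD3-negative Csf2 = 0 cell of its own library that was nearest in total UMIs, and no cell was used more than once. The matched cells had the same median UMIs as the members. Members had a median of 2255.5 genes, against 2219.5 in matched cells of the stimulated library, and 2063 against 2058.5 in the unstimulated library. Mitochondrially encoded genes took 3.24% of UMIs in members and 3.27% in matched cells after IL-23, and 2.52% and 2.64% without it. The libraries shared 29 barcodes, of which 2 belonged to stimulated and 4 to unstimulated members. Doublets were not called or removed. Cells with over 3 times the median UMIs of all kept cells of their library were 14 of the stimulated and 8 of the unstimulated members.

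The ILC3 label was checked against 12 ILC3 genes, such as Il7r, Il23r, Thy1, Kit and Il22. At least 3 UMIs of them were held by all 498 stimulated members and 735 of the 736 unstimulated members, but also by 498 of 498 and 733 of 736 matched cells, so this measure does not set cells apart. The summed level of that list was 33302 CPM (UMIs of the genes scaled to a total of 1000000 UMIs) in members and 29941 CPM in matched cells after IL-23, and 13133 CPM in members and 8639 CPM in matched cells without it. Il22 alone made 28979 CPM of the sum in stimulated members. Kit, a growth factor receptor of ILC3s, was at 303 CPM in members and 309 CPM in matched cells after IL-23, and at 519 CPM in members and 517 CPM in matched cells without it. Il23r itself, the receptor behind the sort, was at 205 CPM in members and 201 CPM in matched cells after IL-23, and at 161 CPM in members and 125 CPM in matched cells without it. All 6 mast cell markers were at 0 in members, as were the B cell gene Ms4a1 and the ILC2 genes Il1rl1, Il5 and Il9r. The sum of the 9 listed ILC2 genes was not 0. It was 56.7 CPM in members and 43.0 CPM in matched cells after IL-23, and 57.8 CPM in members and 69.5 CPM in matched cells without it. Areg of that list was at least 1.5-fold higher in members after IL-23 (log2 ratio 1.03) but not without it. T cell genes other than the CD3 chains were not absent. Over the 10 genes of that list in the files, their sum was 484 CPM in members and 342 CPM in matched cells after IL-23, and 593 CPM in members and 517 CPM in matched cells without it. At least 3 UMIs of the list were found in 46.2% of members and 39.0% of matched cells after IL-23, and in 51.4% of members and 45.1% of matched cells without it. Nearly all of the sum came from the T cell receptor constant genes Trbc1, at 249.8 CPM in members after IL-23 and 293.8 CPM in members without it, and Trbc2, at 229.9 and 294.6 CPM. Trbc2 was found in 58.8% of members and 49.2% of matched cells after IL-23, and in 56.5% and 56.3% without it. Trac, the alpha chain constant gene, was found in 7 of 498 and 8 of 736 members. The summed level of 9 NK cell and ILC1 genes was 174 CPM in members and 89.4 CPM in matched cells after IL-23, and 71.6 CPM in members and 35.5 CPM in matched cells without it. Klra4, Klra7 and Klra8 of that list were at 0 in members of both libraries. The summed level of 9 macrophage and dendritic cell genes was 168 CPM in members and 182 CPM in matched cells after IL-23, and 154 CPM in members and 186 CPM in matched cells without it. That of 8 B and plasma cell genes was 14.5 CPM in members and 13.7 CPM in matched cells after IL-23, and 14.2 CPM in members and 323 CPM in matched cells without it. The main ratios below are also given for cells without a UMI of the T cell receptor constant genes in the files. Only 10 of the 12 T cell genes listed were in the files, so not every receptor constant gene was checked. Leaving out cells with at least 3 UMIs of B, plasma or macrophage markers kept 364 of the 371 genes at least 1.5-fold higher after IL-23. It kept 229 of the 240 higher genes without IL-23. The part of the remaining other-cell genes in the ratios was not tested.

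A Csf2 UMI was found in 5.80% of CD3-negative cells of the IL-23 stimulated library (exact binomial 95% interval 5.32 to 6.32%) and in 7.31% of those of the unstimulated library (6.80 to 7.83%). The intervals did not overlap, although the stimulated cells were the more deeply sequenced. After every cell was thinned to 3000 UMIs the shares were 3.48% (3.09 to 3.91%) of 8007 stimulated cells and 4.71% (4.29 to 5.16%) of 9301 unstimulated cells, with 576 and 774 shallower cells left out. Summed over CD3-negative cells, Csf2 stood at 20.6 CPM with IL-23 and 29.5 CPM without it. The lower share and level in the IL-23 library is a difference between 2 libraries and cannot be told apart from differences in their handling.

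Detection of Csf2 depended on depth in both libraries. CD3-negative cells were divided by total UMIs into 5 equal groups. From the shallowest to the deepest group the share with a Csf2 UMI was 3.79, 3.09, 5.82, 7.17 and 9.15% after IL-23. The corresponding shares without IL-23 were 3.87, 4.26, 5.77, 9.72 and 12.9%. The shallowest and deepest groups had median depths of 3827 and 9783.5 UMIs with IL-23 and 3193 and 7890 UMIs without it. The shares were nearly equal in the shallowest and the third group, and the other groups had the higher share without IL-23. The groups were formed within each library and differ in depth between them. Cells without a Csf2 UMI therefore include an unknown number whose Csf2 RNA was not captured.

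**Figure D1:**
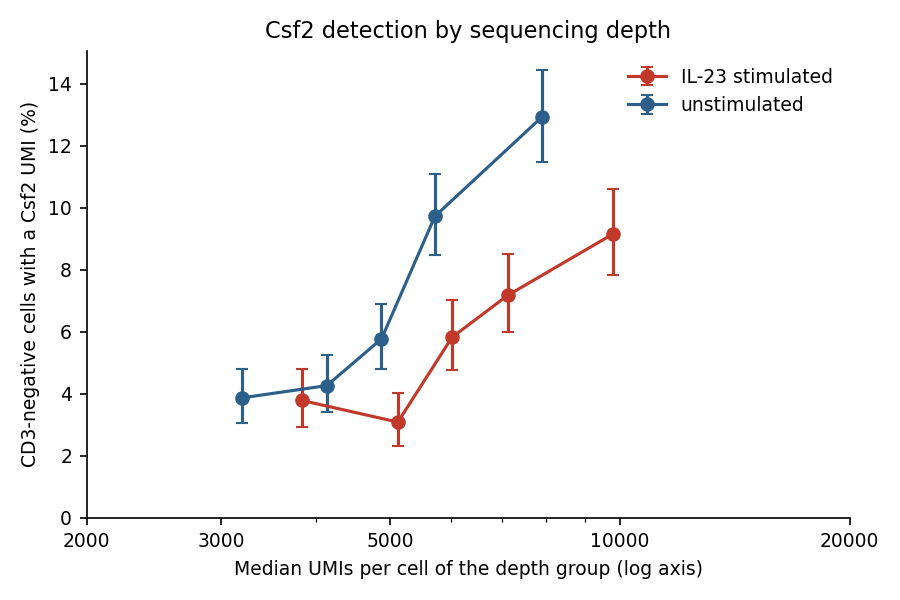
Share of CD3-negative cells with at least 1 Csf2 UMI (y axis, percent) in 5 equal groups of cells by total UMIs (x axis, median UMIs of the group, log axis), for the IL-23 stimulated and the unstimulated library, with exact binomial 95% intervals. The deepest group reaches 9.15% after IL-23 and 12.9% without it.

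Most members sat just inside the rule, and a few cells held much of the RNA. Of the stimulated members 312 had 1 Csf2 UMI, 116 had 2 to 3 and 70 had 4 or more. Of the unstimulated members 439 had 1, 202 had 2 to 3 and 95 had 4 or more. The cells with 4 or more held 48.7% of the 1153 Csf2 UMIs after IL-23 and 42.7% of the 1573 without it. The top 10% of members, 50 stimulated and 74 unstimulated cells, held 41.7 and 37.3%, and the highest single cells had 66 and 32 UMIs. Just outside the rule were the 8085 and 9339 CD3-negative cells with 0 UMIs. Over all members Csf2 was at 298 CPM in the stimulated and 338 CPM in the unstimulated library. These levels follow from the rule and from the members' depth, and no difference between the libraries is read from them.

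Csf2-positive cells were found in each ILC3 subset that could be read from Ncr1, the gene of the NKp46 receptor, and Ccr6, the chemokine receptor of lymphoid tissue inducer-like cells. Among cells with Ncr1 and no Ccr6 the share was 7.47% (94 of 1258, interval 6.08 to 9.07%) after IL-23 and 15.9% (167 of 1052, 13.7 to 18.2%) without it. Among cells with Ccr6 and no Ncr1 it was 5.87% (86 of 1464) and 8.34% (128 of 1535). Among cells with neither UMI it was 5.24% (304 of 5802) and 5.81% (432 of 7440). The Ncr1 class had the highest share of these 3 classes in both libraries. By level the order differed after IL-23, where Csf2 was at 20.0 CPM over the Ncr1 class, 24.7 CPM over the Ccr6 class and 19.3 CPM over cells with neither. Without IL-23 these levels were 60.4, 27.5 and 23.3 CPM. At 3000 UMIs per cell the shares in the Ncr1 class were 4.25% with IL-23 and 9.58% without it, against 3.02 and 5.12% in the Ccr6 class and 3.34 and 3.86% in cells with neither. Cells with both genes had 23.7% (14 of 59) and 18.8% (9 of 48), but these few cells had median depths of 12243 and 9802.5 UMIs. Ncr1-class cells made 18.9% of members and 15.9% of matched cells after IL-23, and 22.7 and 13.6% without it. Among cells with Cd4 the shares were 5.91% after IL-23 and 7.01% without it. Among cells with H2-Ab1, a gene of MHC class II, they were 4.65 and 6.81%.

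Free RNA in droplets can give a Csf2 UMI to a cell that does not express the gene. Cells with B cell markers, which served as a background, had a Csf2 UMI in 0 of 16 stimulated cells and 0 of 31 unstimulated cells, at median depths of 9248 and 8112 UMIs. Counts of 0 in so few cells allow shares of up to 18.8 and 9.68%, so this background is not well measured. Cells with macrophage markers had 0 of 6 and 1 of 11. CD3-positive cells, which include T cells known to make GM-CSF, had 4.49% (30 of 668) and 3.92% (28 of 715), and 2.08 and 2.49% after thinning.

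**Figure D2:**
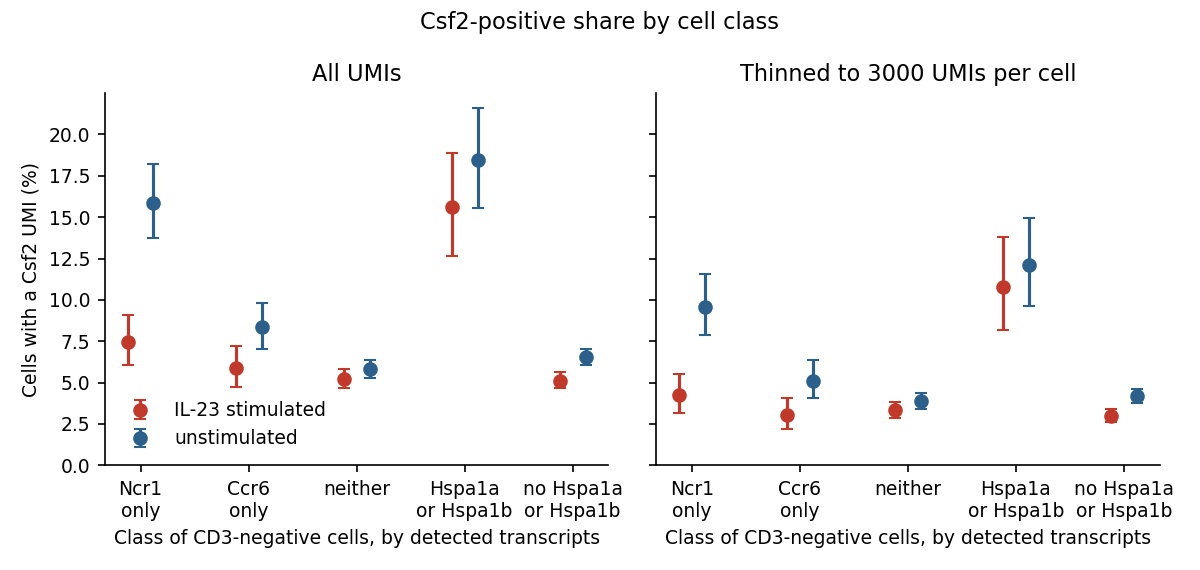
Percentage of cells with at least 1 Csf2 UMI (exact binomial 95% intervals) by cell class, IL-23 stimulated and unstimulated, with all UMIs (left) and with each cell thinned to 3000 UMIs (right). Only means one of the pair Ncr1 and Ccr6 without the other. Cells with a heat shock UMI (15.6 and 18.4%) and, without IL-23, cells with Ncr1 and no Ccr6 (15.9%) lie above the CD3-negative total of 5.80 and 7.31%.

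Against matched cells, 371 of 7041 measured genes (5.27%) were at least 1.5-fold higher in stimulated members and 171 (2.43%) at least 1.5-fold lower. In the unstimulated library 240 of 7137 genes (3.36%) were higher and 144 (2.02%) lower. A gene counted as measured at 10 CPM or more in 1 or both cell groups and 20 or more UMIs over both, and the ratio was taken after adding 0.5 UMI. The median log2 ratio of all measured genes was 0.016 after IL-23 and -0.0072 without it. Many of the calls on low genes moved with the choice of matched cells. With a second set of matched cells, 181 of the 371 and 153 of the 240 higher genes stayed past 1.5-fold. Among the 2931 genes at 50 CPM or more in both libraries, 66 were higher after IL-23 and 62 without it, and 35 genes were in both lists (53.0 and 56.5% of each list). The ratios of the 2 libraries correlated across these genes with Pearson r = 0.73, a description in which genes are not independent replicates.

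Of those 35 genes, 18 stayed at least 1.5-fold higher in both libraries under each of 6 other ways of making the comparison. These were all Csf2 = 0 cells weighted to the members' depth, a second set of matched cells, cells without Hspa1a or Hspa1b, matching within the Ncr1 and Ccr6 classes, matching by number of genes, and each gene without its highest cell. The 18 genes were Ccrl2, Cd69, Clec2d, Cxcl2, Fosb, Gadd45b, Klf6, Ltb, Map3k8, Nfkbia, Nfkbid, Nr4a1, Ptgs2, Rel, Tagap, Tnf, Xcl1 and Zfp36. They include NF-kB genes (Rel, Nfkbia, Nfkbid), tumour necrosis factor family cytokines (Tnf, Ltb), chemokines (Cxcl2, Xcl1) and early response genes (Fosb, Nr4a1, Klf6). All but Tagap and Zfp36 also stayed past 1.5-fold in both libraries among cells without a T cell receptor constant UMI, where 114 stimulated and 179 unstimulated members were left.

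**Figure D3:**
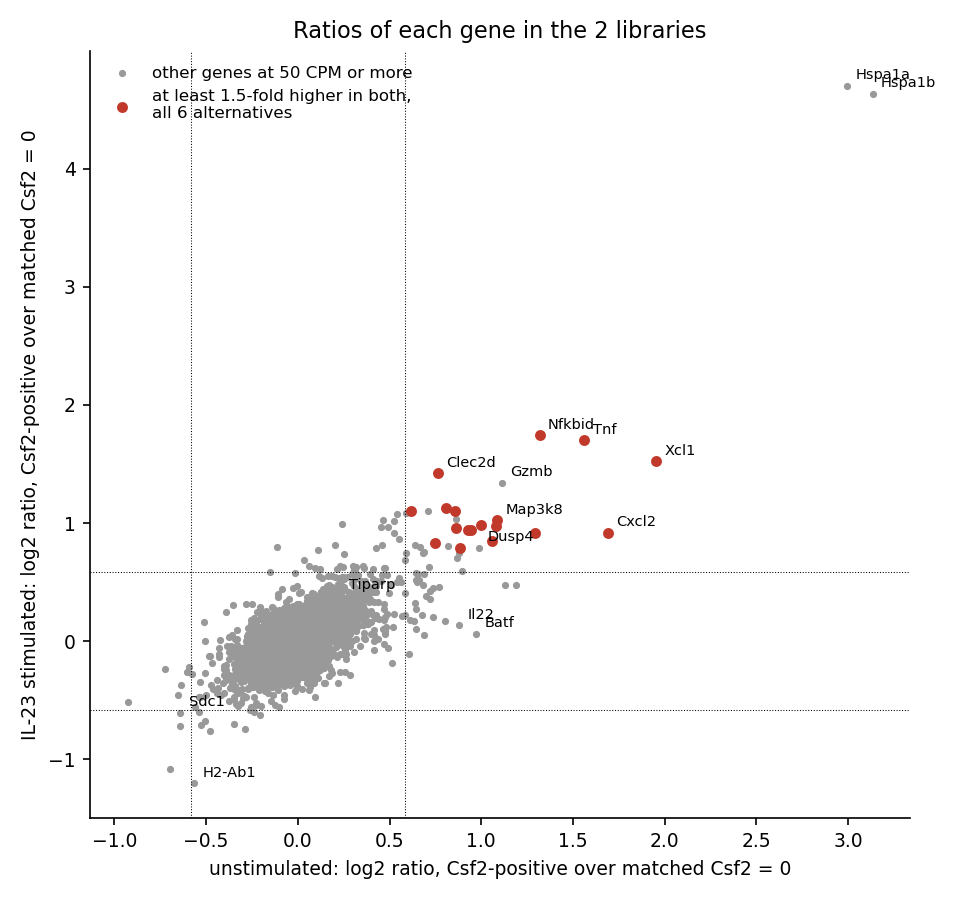
Log2 ratio of members over matched Csf2 = 0 cells in the IL-23 stimulated library against the same ratio in the unstimulated library, 1 point per gene at 50 CPM or more in both libraries (2931 genes). Dotted lines mark 1.5-fold and red points the 18 genes that stayed past it under all 6 alternatives. The upper right corner holds 35 genes, among them Nfkbid, Tnf, Xcl1, Cxcl2, Hspa1a and Hspa1b.

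Among secreted cytokines, members were higher in several besides Csf2. Of 17 measured cytokine genes 9 were at least 1.5-fold higher and 1 lower after IL-23 (median log2 ratio 0.60), and of 16 without IL-23, 8 were higher and none lower (median 0.71). Over all measured genes 5.27% were higher and 2.43% lower after IL-23, and 3.36% higher and 2.02% lower without it. The lists were chosen with earlier results known, so list counts here and below are descriptions. Tnf, the gene of tumour necrosis factor, was at 71.2 CPM in members (exact Poisson 95% interval 63.0 to 80.1) and 21.8 CPM in matched cells (17.4 to 27.0) after IL-23, a 3.26-fold ratio. Without IL-23 it was at 94.8 CPM (86.2 to 104) in members and 32.0 CPM (27.1 to 37.6) in matched cells, a 2.95-fold ratio. Neither pair of intervals overlapped, and Tnf was found in 27.5% of members and 10.8% of matched cells after IL-23 and in 30.7% of members and 14.0% of matched cells without it.

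Other genes of the tumour necrosis factor family were higher too. Ltb, which encodes the membrane anchor of lymphotoxin and is needed for lymphoid tissue, was at 103 CPM in members and 53.4 CPM in matched cells after IL-23, and at 179 CPM in members and 92.9 CPM in matched cells without it. Both ratios were 1.92-fold. Lta, the soluble lymphotoxin, was at 41.7 CPM in members and 23.6 CPM in matched cells after IL-23 (1.76-fold) and 69.9 CPM in members and 29.2 CPM in matched cells without it (2.38-fold). Tnfsf14, the ligand LIGHT, was 1.52-fold higher after IL-23 and 2.10-fold higher without it. Tnfsf11, the ligand RANKL, was at 242 CPM in members and 115 CPM in matched cells after IL-23 (2.10-fold) and at 278 CPM in members and 191 CPM in matched cells without it (1.45-fold). Tnfsf8, the ligand of CD30, was at 30.8 CPM in members and 17.1 CPM in matched cells after IL-23 (1.79-fold) and at 40.9 CPM in members and 34.2 CPM in matched cells without it (1.19-fold). Of these genes Tnf, Ltb, Lta and Tnfsf14 passed 1.5-fold in both libraries, and Tnfsf11 and Tnfsf8 passed after IL-23, a difference that was not tested.

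Il2, a T cell growth factor that ILC3s are also known to make, had the highest ratio among cytokines but rested on few cells. It was at 30.3 CPM in members and 1.30 CPM in matched cells after IL-23, with 14 positive members and 50 of the 117 UMIs in 1 cell. Without IL-23 it was at 11.8 CPM in members and 1.08 CPM in matched cells, with 27 positive members. Leaving out the highest cell left ratios of 19.3 after IL-23 and 10.4 without it, while against all Csf2 = 0 cells weighted for depth they were 22.3 and 5.98. Among cells without a T cell receptor constant UMI, the Il2 ratio was 33.0 after IL-23 and 0.33 without it. The first can rest on no more than the 14 positive members above. The second had too few UMIs to be measured, so higher Il2 in members was not seen in those unstimulated cells. Ifng, which encodes interferon gamma, was at 36.2 CPM in members and 17.1 CPM in matched cells after IL-23, in 28 members and 13 matched cells.

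The hallmark ILC3 cytokines Il22 and Il17a had ratios that differed between the libraries, which was not tested. Il22, which acts on epithelium, was at 28979 CPM in members and 26369 CPM in matched cells after IL-23, a ratio of 1.10. Without IL-23 it was at 8803 CPM in members and 4790 CPM in matched cells, a 1.84-fold ratio that was 1.64-fold against depth-weighted cells. Il22 was thus higher with IL-23 than without it by 3.29-fold in members and 5.50-fold in matched cells. Il17a was at 199 CPM in members and 380 CPM in matched cells after IL-23, a ratio of 0.52, but 1 matched cell held 320 of its 1466 UMIs. Without IL-23 it was at 29.7 CPM in members and 16.1 CPM in matched cells, a ratio of 1.83. Against depth-weighted cells these ratios were 0.65 after IL-23 and 1.34 without it.

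Chemokine genes were the next ligands. Of 10 measured genes 4 were higher and 1 lower after IL-23 (median log2 ratio 0.39), and of 9 without it 5 were higher and 1 lower (median 0.90). The higher share of all measured genes was 5.27% after IL-23 and 3.36% without it. Cxcl2, a neutrophil attractant, was at 609 CPM in members and 322 CPM in matched cells after IL-23, a 1.89-fold ratio, with 49.2% of the members' UMIs in 10 cells. Without IL-23 it was at 1147 CPM in members and 355 CPM in matched cells, a 3.23-fold ratio. The more even measure, the share of cells with a UMI, was 31.9% of members and 18.9% of matched cells after IL-23, and 36.0 and 20.9% without it. Cxcl3, a close relative, was 1.39-fold higher after IL-23 and 2.19-fold higher without it. Cxcl10, an interferon-induced attractant of CXCR3-bearing cells, was 1.51-fold higher after IL-23 and 1.86-fold higher without it.

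Xcl1, which attracts cross-presenting dendritic cells, was at 89.8 CPM in members and 31.1 CPM in matched cells after IL-23 (2.88-fold), and at 73.5 CPM in members and 18.9 CPM in matched cells without it (3.87-fold). By class, Xcl1 was highest in members with Ncr1 and no Ccr6. In members with Ncr1 and no Ccr6 it was at 189 CPM, against 31.5 CPM in their own matched cells after IL-23, and at 152 CPM in members and 32.2 CPM in matched cells without it. In members with Ccr6 and no Ncr1 it was at 11.9 CPM in members and 25.1 CPM in matched cells after IL-23, and at 9.35 CPM in members and 0 CPM in matched cells without it. In members with neither gene it was at 88.8 CPM, against 34.5 CPM in their matched cells after IL-23, and at 61.1 CPM, against 16.5 CPM, without it. Among members Xcl1 was found in 21.3% of Ncr1-positive and 1.00% of Ccr6-positive cells after IL-23, and in 22.2% of Ncr1-positive and 5.11% of Ccr6-positive cells without it. In the Ccr6 class the values rest on few cells, 1.16% of those members after IL-23 and 3.12% without it.

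**Figure D4:**
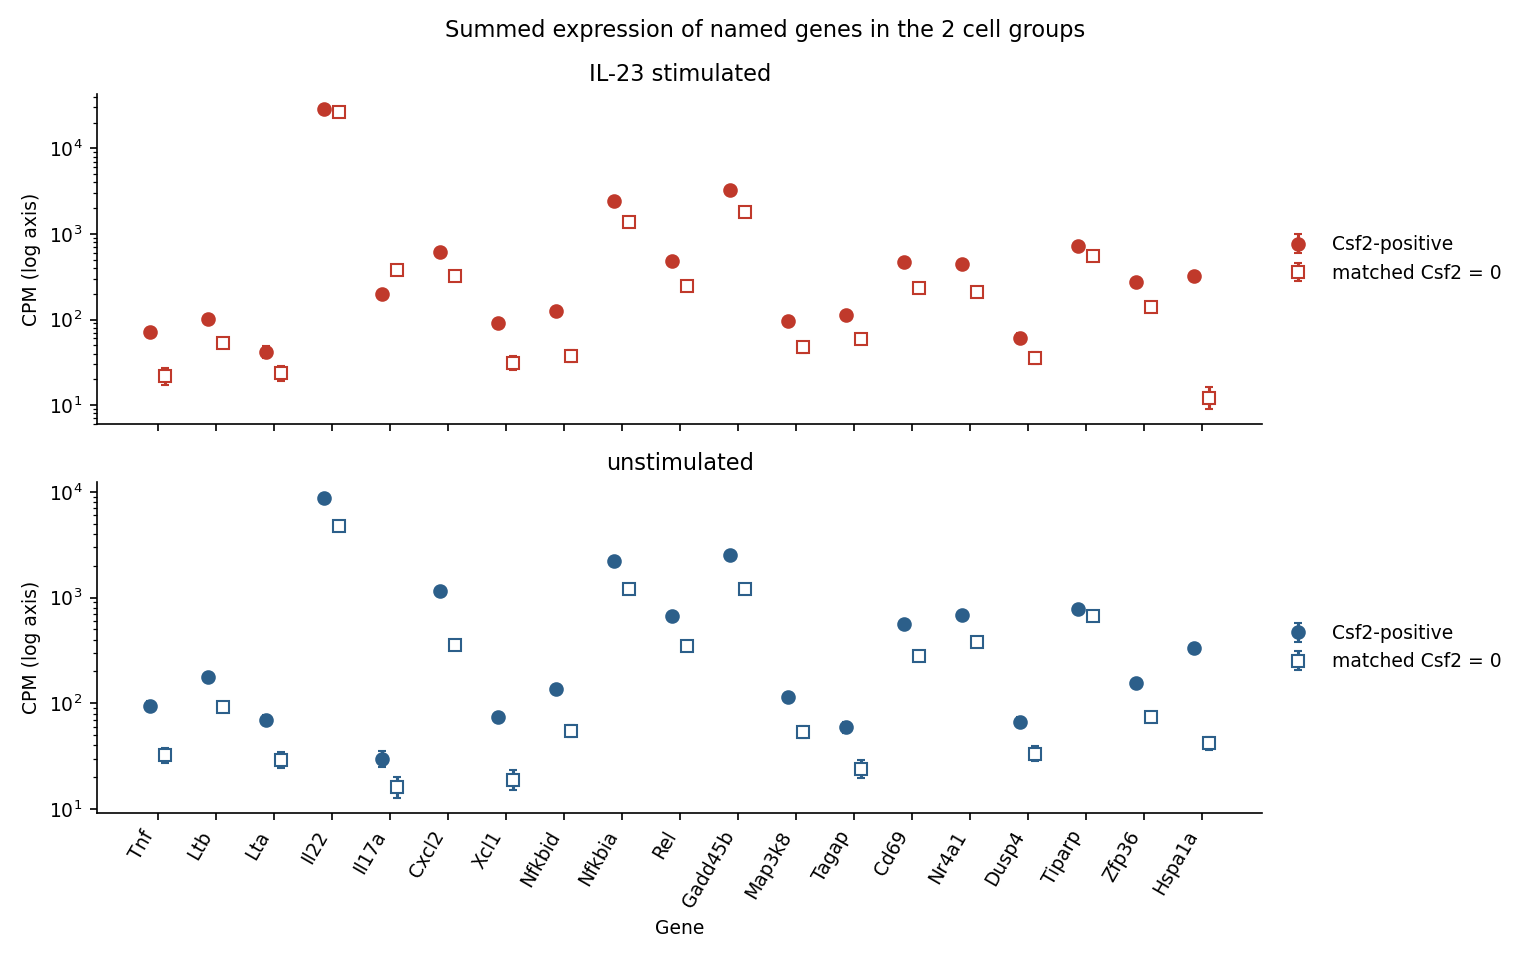
CPM in Csf2-positive members and matched Csf2 = 0 cells of each library (log axis), with exact Poisson 95% intervals, for genes described in the text. Nfkbid and Tnf in members (127 and 71.2 CPM after IL-23, 136 and 94.8 CPM without it) lie above both sets of matched cells.

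NF-kB genes made the longest signalling list. Of 25 measured genes 9 were higher and none lower after IL-23 (median log2 ratio 0.34), and of 24 without it 8 were higher and none lower (median 0.42). Of all measured genes 5.27% were higher after IL-23 and 3.36% without it. Nfkbid, which encodes the nuclear inhibitor IκBNS, was at 127 CPM in members (116 to 139) and 37.8 CPM in matched cells (32.0 to 44.5) after IL-23, a 3.35-fold ratio. In the unstimulated library the ratio was 2.49-fold, with 136 CPM (126 to 147) in members and 54.6 CPM (48.1 to 61.8) in matched cells. It was found in 34.5% of members and 16.3% of matched cells after IL-23 and in 35.5% of members and 18.8% of matched cells without it.

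Rel, the NF-kB subunit c-Rel, was at 479 CPM in members and 249 CPM in matched cells after IL-23 and at 664 CPM in members and 348 CPM in matched cells without it, ratios of 1.92 after IL-23 and 1.91 without it. Nfkbia, the feedback inhibitor IκBα, was at 2412 CPM in members and 1394 CPM in matched cells after IL-23 (1.73-fold) and at 2212 CPM in members and 1198 CPM in matched cells without it (1.85-fold). Gadd45b, a stress-induced NF-kB target, was 1.80-fold higher after IL-23 and 2.09-fold higher without it. Map3k8, the kinase TPL2 that links NF-kB to the ERK pathway, was 2.03-fold higher after IL-23 and 2.13-fold higher without it. The other subunits stayed under the threshold. Nfkb1 was 1.33-fold higher in both libraries, and Relb 1.19-fold after IL-23 and 1.22-fold without it. Rela had ratios of 0.95 after IL-23 and 1.00 without it, and Nfkb2 of 0.94 and 1.03. Of these 5 subunit genes Rel alone was past 1.5-fold in either library. The deubiquitinase gene Tnfaip3 was 2.03-fold higher after IL-23 and 1.38-fold without it. The nuclear regulators Nfkbiz and Bcl3 had ratios of 1.13 and 0.84 after IL-23 and passed 1.5-fold without it, at 1.55 and 1.65, where Bcl3 was at 29.2 CPM in members and 17.6 CPM in matched cells.

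Genes switched on by calcium signals and NFAT were next. Of 13 measured genes 5 were higher after IL-23 (median log2 ratio 0.54) and of 12 without it 4 were higher (median 0.28), with none lower in either library. For all measured genes the higher share was 5.27% after IL-23 and 3.36% without it. Cd69, an early activation antigen that keeps lymphocytes in tissue, was at 464 CPM in members and 235 CPM in matched cells after IL-23, and at 563 CPM in members and 282 CPM in matched cells without it, ratios of 1.98 after IL-23 and 2.00 without it. Nr4a1, an orphan nuclear receptor induced by antigen receptor signals in T cells, was at 448 CPM in members and 209 CPM in matched cells after IL-23 (2.14-fold) and at 684 CPM in members and 377 CPM in matched cells without it (1.81-fold). Tagap, a GTPase-activating protein of activated T cells, was 1.89-fold higher after IL-23 and 2.45-fold higher without it. Irf4 was 4.24-fold higher after IL-23, at 20.2 CPM in members and 4.67 CPM in matched cells, but was found in only 29 members and 5 matched cells.

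AP-1 and immediate early genes were mixed. Of 19 measured genes 4 were higher and 2 lower after IL-23 (median log2 ratio 0.12), and 5 were higher and none lower without it (median 0.23). Over all measured genes 5.27% were higher and 2.43% lower after IL-23, and 3.36% higher and 2.02% lower without it. Fosb was 2.14-fold higher after IL-23 and 1.53-fold higher without it, and Klf6, a zinc finger factor, was 1.78-fold and 1.68-fold higher in the same order of libraries. Myc, the growth regulator, was at 66.3 CPM in members and 22.0 CPM in matched cells after IL-23 (2.996-fold) and 12.9 CPM in members and 4.73 CPM in matched cells without it (2.69-fold). Fos had ratios of 1.54 after IL-23 and 1.19 without it, and Jun of 1.49 after IL-23 and 1.57 without it. Junb, the most abundant member at 3925 CPM in members and 3679 CPM in matched cells after IL-23, had ratios of 1.07 after IL-23 and 1.14 without it, and Egr1 had 1.26 after IL-23 and 1.17 without it. Batf, the AP-1 partner of IRF4, was at 525 CPM in members and 503 CPM in matched cells after IL-23, a ratio of 1.04, but at 52.5 CPM in members and 26.7 CPM in matched cells without it, a ratio of 1.96.

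Feedback in the MAP kinase pathway was limited to a few genes. Of 12 measured genes 3 were higher after IL-23 (median log2 ratio 0.08), and of 11 without it 2 were higher (median 0.09). The share over all measured genes was 5.27% after IL-23 and 3.36% without it. Dusp4, a nuclear MAP kinase phosphatase and a marker of these cells, was at 61.6 CPM in members and 35.5 CPM in matched cells after IL-23 (1.73-fold) and at 66.2 CPM in members and 33.3 CPM in matched cells without it (1.98-fold). After IL-23 its ratio was 1.36 with a second set of matched cells. Tiparp, an ADP-ribosyltransferase induced by the aryl hydrocarbon receptor, was at 730 CPM in members and 556 CPM in matched cells after IL-23 (1.31-fold) and at 788 CPM in members and 670 CPM in matched cells without it (1.18-fold). It was found in 75.9% of members and 77.7% of matched cells after IL-23. None of the 5 measured aryl hydrocarbon receptor genes passed 1.5-fold in either library, with median log2 ratios of 0.20 and -0.02.

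Of 10 mRNA decay genes Zfp36 alone was past 1.5-fold in either library. Over all measured genes 5.27% were higher after IL-23 and 3.36% without it, so 1 gene is not read as a result about the list. Zfp36 encodes tristetraprolin, which binds AU-rich elements and is known to destabilise Csf2 and Tnf mRNA. It was at 272 CPM in members and 138 CPM in matched cells after IL-23 (1.96-fold) and at 156 CPM in members and 73.5 CPM in matched cells without it (2.12-fold). The decay nuclease gene Zc3h12a had ratios of 1.03 after IL-23 and 1.20 without it. Ptgs2, the inducible cyclooxygenase of prostaglandin synthesis, was at 228 CPM in members and 118 CPM in matched cells after IL-23 and at 329 CPM in members and 181 CPM in matched cells without it, ratios of 1.94 after IL-23 and 1.82 without it. Clec2d, a ligand of inhibitory NK receptors, was 2.68-fold higher after IL-23 and 1.70-fold higher without it. Ccrl2, an atypical chemokine receptor, was at 78.4 CPM in members and 35.8 CPM in matched cells after IL-23 and at 149 CPM in members and 85.2 CPM in matched cells without it. These last 3 genes belong to no list, and Ptgs2 and Ccrl2 were chosen after their values were seen.

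Lists outside these groups differed little. Of 14 STAT and SOCS genes, which read out cytokine receptor signals including IL-23, none passed 1.5-fold after IL-23 and Pim3 alone did without it (1.56-fold), with medians of 0.03 and 0.02. Socs3, an IL-23 and STAT3 target, was at 801 CPM in members and 795 CPM in matched cells after IL-23 and at 204 CPM in members and 224 CPM in matched cells without it. None of 18 glycolysis and hypoxia genes and none of 13 mitochondrially encoded genes passed. Among receptors of inducing signals, 2 of 17 were higher and 1 lower after IL-23, and 1 of 16 was higher without it. These few calls stand beside 5.27 and 3.36% of all measured genes higher, and are not read as a difference of the list. The interleukin-1 receptor gene Il1r1 was at 340 CPM in members and 383 CPM in matched cells after IL-23 and at 81.3 CPM in members and 74.4 CPM in matched cells without it, so members did not carry more of it after IL-23. Il2ra, the alpha chain of the IL-2 receptor, was 1.34-fold higher after IL-23 and 1.65-fold higher without it. Csf2rb, the signalling chain of the GM-CSF receptor, had 0 UMIs in stimulated members and 1 UMI in unstimulated members.

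Identity genes differed less. Of the ILC3 genes, Gata3, a regulator of lymphoid cell development, was 1.56-fold higher after IL-23 and 1.15-fold higher without it. Il7r, the receptor for interleukin-7 on which these cells depend, was 1.47-fold higher after IL-23 and 1.14-fold higher without it. Ncr1 was at 46.9 CPM in members and 38.4 CPM in matched cells after IL-23 and at 64.7 CPM in members and 33.3 CPM in matched cells without it, a 1.94-fold ratio. Matching within the Ncr1 and Ccr6 classes left that ratio at 1.17. Genes of the MHC class II pathway were lower, by ratios that moved with the matched cells. H2-Ab1 was at 60.8 CPM in members and 140 CPM in matched cells after IL-23 (ratio 0.44) and at 66.9 CPM in members and 99.1 CPM in matched cells without it (0.67). Cd74, the invariant chain, was at 406 CPM in members and 666 CPM in matched cells after IL-23 (0.61) and at 354 CPM in members and 552 CPM in matched cells without it (0.64). H2-Eb1, another class II gene, had ratios of 0.47 after IL-23 and 0.62 without it. Against all depth-weighted cells the ratios of Cd74 were 0.89 after IL-23 and 0.72 without it, those of H2-Eb1 were 0.81 and 0.71, and none of the 3 genes lower in both libraries stayed past 1.5-fold in both at once. The ratios of H2-Ab1 against depth-weighted cells were 0.62 after IL-23 and 0.64 without it, both past 1.5-fold, but with a second set of matched cells they were 0.73 and 0.87. The third of them, Sdc1, which encodes syndecan-1, had matched ratios of 0.66 after IL-23 and 0.64 without it, and 0.65 and 0.68 against depth-weighted cells.

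Gzmb, which encodes granzyme B, was at 92.1 CPM in members and 36.3 CPM in matched cells after IL-23 (2.53-fold) and at 50.7 CPM in members and 23.4 CPM in matched cells without it (2.16-fold). In cells without a T cell receptor constant UMI its ratios were 0.70 after IL-23 and 0.23 without it, so its direction turned with that choice. In the same cells Nfkbid was 2.94-fold higher in members after IL-23 and 1.54-fold higher without it. Tnf was 2.12-fold higher after IL-23 and 2.79-fold higher without it. Cxcl2 was 1.66-fold and Xcl1 2.33-fold higher after IL-23, and without it Cxcl2 was 3.55-fold and Xcl1 4.20-fold higher.

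Among genes at 50 CPM or more in both libraries, the highest mean ratios belonged to Hspa1b and Hspa1a. These are inducible heat shock genes, known to respond to protein-damaging stress. Hspa1a was at 321 CPM in members and 12.2 CPM in matched cells after IL-23 (26.1-fold) and at 335 CPM in members and 41.9 CPM in matched cells without it (7.97-fold). Against all depth-weighted cells the ratios were 9.54-fold after IL-23 and 7.55-fold without it. Hspa1b was at 106 CPM in members and 4.15 CPM in matched cells after IL-23 and at 144 CPM in members and 16.3 CPM in matched cells without it, and Hsph1 was 3.50-fold higher after IL-23 and 2.83-fold higher without it. Cells with an Hspa1a or Hspa1b UMI were Csf2-positive in 15.6% (87 of 558) after IL-23 and 18.4% (120 of 651) without it, against 5.12 and 6.54% of cells with none. Thinned to 3000 UMIs these shares were 10.8% after IL-23 and 12.1% without it, against 2.998 and 4.20% of cells with none. Csf2 and heat shock RNA thus occurred together, and the other ratios were also taken with those cells left out. Cells whose Hspa1a or Hspa1b RNA was not captured stay in, so the part of heat shock in the other ratios was not measured. Of the 35 genes higher in both libraries 26 remained past 1.5-fold in both without these cells, and the marker Dusp4 stood at 1.35-fold after IL-23 and 1.88-fold without it. Among the 411 stimulated and 616 unstimulated members left, Nfkbid was 2.99-fold higher after IL-23 and 2.38-fold higher without it. For Tnf these ratios were 2.76 and 2.52, for Cxcl2 2.18 and 3.20, for Xcl1 2.28 and 4.23, and for Cd69 1.91 and 1.80, each given after IL-23 and then without it. Dnajb1, a heat shock co-chaperone gene, had ratios of 1.75 after IL-23 and 1.76 without it when those cells were in, and 1.05 and 1.09 when they were left out. Hsph1 still had ratios of 2.19 after IL-23 and 1.22 without it when they were left out.

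Summed over cells, several of these genes were at higher CPM in members with more Csf2 UMIs, which does not describe every cell. In members with 1, 2 to 3, and 4 or more Csf2 UMIs, Nfkbid was at 99.7, 163 and 195 CPM after IL-23 and at 117, 138 and 214 CPM without it. Tnf was at 50.2, 76.6 and 162 CPM after IL-23 and at 77.1, 109 and 141 CPM without it. Rel was at 437, 459 and 715 CPM after IL-23 and at 563, 674 and 1063 CPM without it. Nr4a1 was at 357, 500 and 789 CPM after IL-23 and at 556, 703 and 1182 CPM without it. Each of these 4 genes had its highest summed level in the class with most Csf2 in both libraries. The share of members with a UMI was 30.8, 41.4 and 40% for Nfkbid after IL-23 and 32.6, 33.2 and 53.7% without it. For Nr4a1 it was 60.3, 62.1 and 62.9% after IL-23 and 66.5, 68.3 and 82.1% without it. For Rel it was 70.5, 80.2 and 75.7% after IL-23 and 72.4, 74.3 and 86.3% without it. Tnf shares were 23.1, 31.0 and 41.4% after IL-23 and 26.0, 36.6 and 40% without it. In the cells matched to the 3 classes Nfkbid was at 39.3, 43.3 and 21.4 CPM after IL-23 and at 49.0, 63.6 and 60.8 CPM without it. Rel was at 239, 260 and 276.5 CPM in matched cells after IL-23 and at 337, 356 and 377 CPM without it, and Nr4a1 at 222, 185 and 187 CPM after IL-23 and at 343, 410 and 455 CPM without it. Matched cells of Rel in both libraries, and of Nr4a1 without IL-23, thus followed the same order over a narrower range. Median depth was close across the 3 classes, at 6900.5, 6754.5 and 7072.5 UMIs after IL-23 and 5648, 5640 and 6245 UMIs without it.

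Cxcl2 was at 430, 441 and 1758 CPM after IL-23 and at 835, 1152 and 2440 CPM without it, and Xcl1 at 57.99, 85.4 and 249 CPM after IL-23 and at 55.9, 69.2 and 155 CPM without it. Gadd45b was at 2905, 3533 and 4623 CPM after IL-23 and at 2027, 2901 and 3904 CPM without it, and Dusp4 at 53.5, 64.4 and 95.4 CPM after IL-23 and at 50.8, 62.8 and 137 CPM without it. By summed level all 4 of these genes were likewise highest in members with most Csf2. The share of members with an Xcl1 UMI was 11.5, 10.3 and 15.7% after IL-23 and 8.66, 8.42 and 23.2% without it. Tiparp had no such order after IL-23, at 757, 635 and 765 CPM, and was at 713, 691 and 1285 CPM without it. Il22 was at 28045, 27663 and 35742 CPM after IL-23 and at 7324, 9946 and 12773 CPM without it. Hspa1a followed the same order as Nfkbid, at 136, 507 and 874 CPM after IL-23 and at 272, 384 and 505 CPM without it. Few cells weigh on these sums. After IL-23, 10 cells held 64.3% of the members' Hspa1a UMIs and 10 cells held 57.6% of their Xcl1 UMIs. In the cells matched to the 3 classes Cxcl2 was at 326, 438 and 99.3 CPM after IL-23 and at 415, 298 and 216 CPM without it. After IL-23 the Cxcl2 ratio was thus 1.32, 1.00 and 17.5 over the 3 classes. Xcl1 in matched cells was at 45.0, 8.88 and 3.89 CPM after IL-23 and at 18.6, 19.1 and 19.8 CPM without it.

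**Figure D5:**
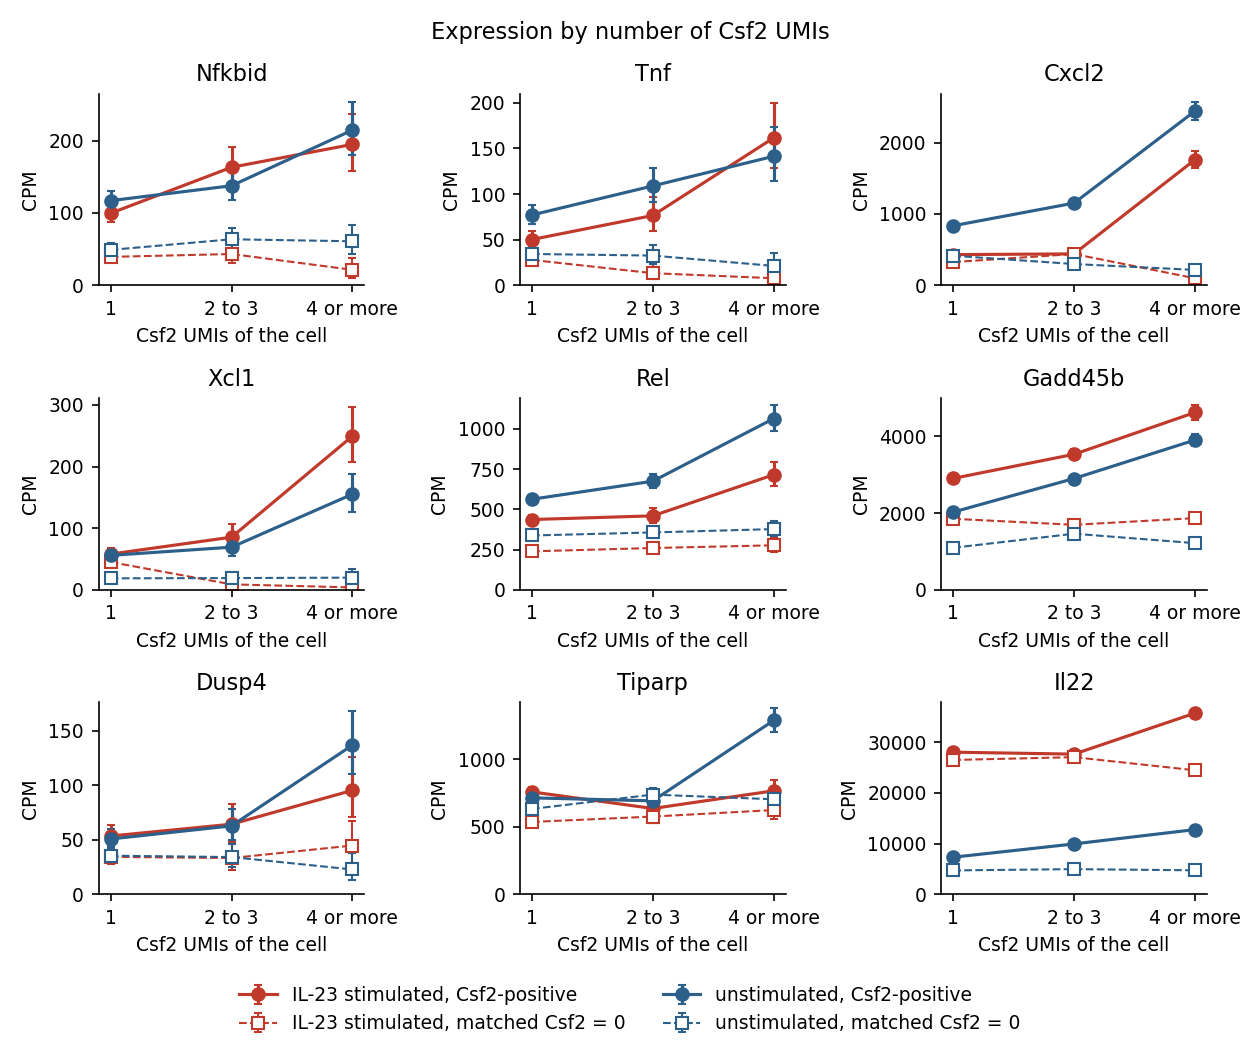
CPM (linear axes from 0, a separate scale for each gene) of 9 genes in members with 1, 2 to 3, and 4 or more Csf2 UMIs and in their matched Csf2 = 0 cells, by library, with exact Poisson 95% intervals. In members Nfkbid climbs through 99.7, 163 and 195 CPM after IL-23 and 117, 138 and 214 CPM without it, while its matched cells lie between 21.4 and 63.6 CPM.

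The markers were found together in more members than matched cells, which is given as a description. They were proposed from the same data, and markers found in more members will also be found together in more members. Joint detection beyond the rates of the single genes was not tested. Of the other 4 markers, 3 or all 4 were detected in 93 and 32 of 498 members, against 40 and 10 of 498 matched cells, after IL-23. Without it the counts were 110 and 62 of 736 members and 65 and 14 of 736 matched cells. None of the 4 was detected in 14.3% of members and 15.7% of matched cells after IL-23 and in 13.7% of members and 21.5% of matched cells without it. A UMI of Il2, Tnf or Nfkbid was found in 46.2% of members and 23.1% of matched cells after IL-23, and in 51.5% of members and 28.5% of matched cells without it. Among members Nfkbid was detected in 84 of 137 Tnf-positive and 88 of 361 Tnf-negative cells after IL-23, and in 113 of 226 Tnf-positive and 148 of 510 Tnf-negative cells without it. Detection of any pair of genes also depends on depth, which was matched between members and matched cells but not between Tnf-positive and Tnf-negative members.

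The ratios of Nfkbid and Tnf were past 1.5-fold in each of the 3 main classes. After IL-23 Nfkbid was 3.13-fold higher in members with Ncr1 and no Ccr6, 3.28-fold in those with Ccr6 and no Ncr1, and 3.50-fold in those with neither. Without IL-23 these ratios were 2.10, 2.998 and 2.26. Tnf was 3.57-fold, 1.77-fold and 4.09-fold higher in the same 3 classes after IL-23, and 3.27-fold, 3.32-fold and 2.70-fold higher without it. Tnfsf11 showed a different pattern, at 510 CPM in Ccr6-class members and 222 CPM in their matched cells after IL-23, and 408 CPM in members and 388 CPM in matched cells without it. In Ncr1-class cells it was at 115 CPM in members and 83.2 CPM in matched cells after IL-23 and at 252 CPM in members and 132 CPM in matched cells without it.

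Some genes at 50 CPM or more had ratios that differed between the libraries, which was not tested because each group was 1 library. The 5 whose ratio was larger without IL-23 by the widest margin were Batf, Il22, Cxcl2, Cysltr1 and Lilrb4a. For Cxcl2 the order turned with a second set of matched cells, to 3.26-fold after IL-23 and 2.73-fold without it. Cysltr1, a receptor for cysteinyl leukotrienes, was 1.39-fold higher after IL-23 and 2.28-fold higher without it. Batf, Il22 and Cysltr1 stood higher in matched cells with IL-23 than without it, by 18.8-fold for Batf, 5.50-fold for Il22 and 3.16-fold for Cysltr1. The corresponding ratios in members were 9.99-fold, 3.29-fold and 1.92-fold. In the opposite direction stood Hspa1a, Hspa1b, Hist1h1e, Crtc2 and Phf1. For the heat shock genes this order turned with the matched cells: with a second set Hspa1a was 8.81-fold higher after IL-23 and 15.2-fold without it, and Hspa1b 5.36-fold and 20.04-fold. Crtc2, a coactivator of cyclic AMP-driven transcription, was 1.99-fold higher in members after IL-23 and 1.18-fold without it, and Hist1h1e, a linker histone gene, had ratios of 1.73 and 0.93. In members the level with IL-23 over that without it was 0.93 for Nfkbid, 0.75 for Tnf and 0.72 for Rel, and in matched cells it was 0.69, 0.68 and 0.71.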

How the data were processed

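The deposited data were UMI counts per gene and cell barcode, 1 matrix per library, made by the authors with Cell Ranger on the mm10 genome. The version was 3.1.0 per the submitters' processing notes and 6.0.0 per the file headers. The counts covered 32285 genes, 10440 barcodes and 62291905 UMIs in the IL-23 stimulated library, and 11096 barcodes and 58443284 UMIs in the unstimulated library.

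Members and gene lists were chosen with earlier results of these data known. Counts were summed over members and over matched Csf2 = 0 cells of the same library, scaled to a total of 1000000 UMIs (CPM), and compared by ratio with 0.5 UMI added. Csf2 was left out of the gene counts. Nothing was tested, because each group was 1 library and cells are not replicates. Sums carry exact Poisson and shares exact Clopper-Pearson 95% intervals, which cover counting error only. A count of 0 allows a share of up to 3 cells of the total. Genes were named by a rule: the 12 highest and 8 lowest mean ratios at 50 CPM or more, the markers, up to 4 genes of each of the 25 lists, and 5 genes per direction whose ratios differed most between libraries. The other list genes given, Ptgs2 and Ccrl2 were picked after their values were seen.

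Gene positions came from GENCODE on GRCm38 and promoter windows from RefSeq on GRCm38.p6. The comparison was tested on simulated data. Python 3.11.15, numpy 2.4.6, pandas 2.3.3, scipy 1.17.1 and matplotlib 3.10.9 were used, with edgeR 4.0.16 in R 4.3.3 for TMM scaling only. Some genes are not reported here.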

Additional observations from a re-analysis of the deposited data

Results flagged for a closer look

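For 4 genes members were at least 1.5-fold higher than matched cells in 1 library and at least 1.5-fold lower in the other, and none of these differences was tested. Il17a had a log2 ratio of members over matched cells of -0.94 after IL-23 and 0.88 without it, a difference of -1.81. It was at 199 CPM in members and 380 CPM in matched cells after IL-23, and at 29.7 CPM in members and 16.1 CPM in matched cells without it. The other three were at low levels. Cd14, a co-receptor for bacterial lipopolysaccharide, had log2 ratios of 0.72 after IL-23 and -1.69 without it, a difference of 2.42. It was at 11.6 CPM in members and 6.998 CPM in matched cells after IL-23, and at 4.52 CPM in members and 14.8 CPM in matched cells without it. Dpy19l3 had log2 ratios of 1.12 after IL-23 and -0.62 without it, a difference of 1.74. Susd3 had log2 ratios of -0.61 after IL-23 and 0.61 without it, a difference of -1.22.

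CD3-positive cells, which took no part in the comparison, also held Csf2. A UMI was found in 4.49% of 668 cells after IL-23 (exact binomial 95% interval 3.05 to 6.35%) and in 3.92% of 715 cells without it (2.62 to 5.61%). No cell with B cell markers held Csf2, but with so few of them a count of 0 allows a share of up to 18.8% after IL-23 and 9.68% without it, and the part of free RNA was not tested. In the 30 and 28 positive cells Nfkbid was at 114 CPM, against 48.5 CPM in matched CD3-positive cells after IL-23, and at 141 CPM against 40.3 CPM without it. These sums hold few UMIs, 33 and 14 in the stimulated library. Other genes were mixed. Cxcl2 was at 83.2 CPM against 13.9 CPM after IL-23, but at 418 CPM against 998 CPM without it. Il2 was at 13.9 CPM against 38.1 CPM after IL-23, and at 5.04 CPM against 0 CPM without it. Tnf was at 31.2 CPM against 17.3 CPM after IL-23 and at 50.4 CPM against 30.2 CPM without it, with overlapping intervals in both libraries.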

How the results depend on the processing

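No paired analysis was possible because each group was 1 library. The number of genes at least 1.5-fold higher or lower depended on the comparison, and 27 of the recomputed counts and shares moved, against 49 that did not. Genes higher after IL-23 numbered 371, against 217 with depth-weighted cells, 71 at 50 CPM or more, 727 in thinned cells, 620 without T cell receptor constant UMIs and 772 at 2 or more Csf2 UMIs. Without IL-23 they numbered 240, against 67, 436, 591 and 468 under the last 4. Genes lower after IL-23 numbered 171, against 90 weighted, 21 at 50 CPM, 383 thinned, 571 without receptor UMIs, 480 at 2 UMIs and 71 with no matching. Without IL-23 they numbered 144, against 83, 17, 297, 527, 504 and 66. The share of Csf2-positive cells was 5.80% after IL-23, against 3.48% thinned, 3.61% without receptor UMIs and 2.17% at 2 UMIs, and 7.31% without IL-23, against 4.71, 4.89 and 2.95%. The cause of these moves was not tested, though fewer cells entered the thinned, receptor-free and 2-UMI comparisons.

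Of the other recomputed values 3073 stayed within the counting error of the main comparison and 679 moved beyond it. Another 23, whose main ratio was past 1.5-fold, turned in direction. Smaller ratios that changed sign were not counted as turned. Without receptor UMIs the log2 ratio after IL-23 became -0.51 for Gzmb, 0.12 for Cd74, -0.39 for Gata3, -1.69 for Areg and 0.12 for Il17a. Without IL-23 it became -2.13 for Gzmb, 0.019 for Cd74, 0.23 for Sdc1 and -0.23 for Il17a. Klf2, at -1.13 after IL-23, became 0.41 at 2 UMIs, 0.073 thinned, 0.040 matched by genes, 0.13 without heat shock cells, 0.014 without the deepest 1% of cells and 0.025 without cells holding B, plasma or macrophage markers. Susd3 after IL-23 became 0.63 thinned, and H2-Eb1 0.050 with a second set. Without IL-23 Dpy19l3, at -0.62, became 0.079 weighted, 0.35 matched by genes, 0.23 with no matching and 0.30 with a second set, and Ccl4, at -2.05, became 0.41 matched by genes and 0.077 with a second set. TMM scaling moved the median ratio of all genes by less than 0.1 in both libraries. At these depths genes near 10 CPM rest on few UMIs.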
